A study of Homo sapiens with 4 samples.

Results

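The long noncoding RNAs FOXD3-AS1, LINC00678, ESRG, MIR302CHG, LNCPRESS1, PCAT14, LINC01356 and LINC01405 were followed from human embryonic stem cells into blastoids. They were 8 of 23364 gene symbols listed in any of the 4 tables, and each table listed all 8. By the form of the symbol, 1732 were counted as noncoding RNAs: LINC with digits, endings such as -AS or -DT, MIR..HG and SNHG. ESRG, LNCPRESS1 and PCAT14 do not have that form, nor do all other noncoding RNAs. The names were chosen because of how they differed between the stem cells and the blastoids and between the stem cells and the rare blastoid cells that still held pluripotency genes. Values of those contrasts are therefore given as a description, with no test.

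Single cells were measured with 10x Genomics Chromium 3′ v3.1 libraries, in which poly(A) RNA is read near its 3′ end and each original molecule carries a tag, the UMI, so that copies are counted once. The stem cell group, hESC 1 and hESC 2, was the established human embryonic stem cell line KhES1, grown on Matrigel in mTeSR-1. The blastoid group, blastoid 3 and blastoid 4, was made from the same line by aggregation in mTeSR-1 with Y27632, embedding in a PNIPAAm-β-PEG hydrogel, culture in DMEM with 10% FBS and then iBlastoid medium. All 4 samples came from this 1 line, and a blastoid here is a model of the early embryo grown from stem cells in the primed state. The labels give no separate cultures for the samples of a group, so p-values speak for these samples only. edgeR takes the spread of a gene partly from all genes tested. A very small p-value is therefore no measure of that gene's own spread between 2 samples. The blastoid samples are titled as day 0, like the stem cells, but their tables are named for day 9. Each sample's description says which group it belongs to, and that was used.

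Kept cells, those with at least 500 genes, no doublet call and no more than 20% of UMIs from mitochondrial genes, numbered 2238 and 3175 in the hESC samples and 2278 and 1916 in the blastoid samples, with 13255214 to 17679447 UMIs per sample and median depths of 4996 to 8798 UMIs per cell. The hESC samples shared 1317 cell barcodes and the blastoid samples 1035, against 6 to 14 between samples of different groups. Most were kept as cells in at most 1 sample of the pair: 23 were kept in both hESC samples and 0 in both blastoid samples. Kept cells with such a barcode were uneven: 26 of 2238 in hESC 1, 1311 of 3175 in hESC 2, 6 of 2278 in blastoid 3 and 1015 of 1916 in blastoid 4. Which sample such cells came from was not tested, and fold changes and shares are also given without them where they touch a result.

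Long noncoding RNAs are transcripts that are not translated into a known protein. Some act as hosts from which microRNAs are cut, some arise from the control sequences of old retroviruses, and some share a start region with a protein-coding gene. In primed pluripotent cells, MIR302CHG is the host of the cluster of miR-302 and miR-367, microRNAs that promote rapid division and the undifferentiated state; ESRG is transcribed from a HERVH retroviral element; LNCPRESS1 is repressed by p53 and reported to keep the deacetylase SIRT6 away from stem cell genes. FOXD3-AS1 lies head to head with FOXD3, a transcription factor of pluripotent and neural crest cells. PCAT14 was first described in prostate cancer and carries retroviral sequence. For LINC00678, LINC01356 and LINC01405 no role is stated here.

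In the GRCh38 annotation of GENCODE release 29, FOXD3-AS1 lies on the minus strand at chr1:63320884-63324441 and overlaps FOXD3 on the plus strand. MIR302CHG (chr4:112646476-112650051, minus strand) lies inside LARP7 on the opposite strand, and ESRG (chr3:54632122-54639857, minus strand) lies inside CACNA2D3 on the opposite strand. The other 5 overlap no coding gene: LINC00678 at chr11:27617626-27634627 on the minus strand, LNCPRESS1 at chr7:101299578-101301346 on the plus strand, PCAT14 at chr22:23536881-23547797 on the plus strand, LINC01356 at chr1:112820170-112850643 on the minus strand and LINC01405 at chr12:110936585-110958208 on the plus strand. The sources used here do not say whether strand was used in counting, so reads of FOXD3-AS1, MIR302CHG and ESRG cannot be told apart with certainty from reads of the overlapping gene.

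What MIR302CHG carries is shown by the mature microRNAs cut from it, whose 5 hairpins all lie inside the gene (RefSeq, GRCh38.p14; 5′ to 3′, with the seed, bases 2 to 8, in capitals). The poly(A) assay did not measure these microRNAs, only their host.
hsa-miR-302b-3p: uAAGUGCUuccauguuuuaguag
hsa-miR-302c-3p: uAAGUGCUuccauguuucagugg
hsa-miR-302a-3p: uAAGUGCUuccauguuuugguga
hsa-miR-302d-3p: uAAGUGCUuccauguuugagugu
hsa-miR-367-3p: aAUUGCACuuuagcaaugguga
The 4 miR-302 arms share the seed AAGUGCU, which 12 of the 2370 human mature microRNAs in the RefSeq table have. The seed of miR-367-3p, AUUGCAC, was found in 6 of the 2370.

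Of the 8 RNAs, 4 had a RefSeq promoter window, which runs from 250 bases before to 50 after the transcript start: MIR302CHG, FOXD3-AS1, LNCPRESS1 and LINC01356. Each window was searched on both strands for ATGCAAAT, the octamer bound by POU factors such as POU5F1, and for AACAAAG, the core bound by SOX factors. The upstream MIR302CHG window (chr4:112650002-112650301, minus strand, GRCh38.p14) held both, 202 and 141 bases before the start, shown in capitals.
MIR302CHG window: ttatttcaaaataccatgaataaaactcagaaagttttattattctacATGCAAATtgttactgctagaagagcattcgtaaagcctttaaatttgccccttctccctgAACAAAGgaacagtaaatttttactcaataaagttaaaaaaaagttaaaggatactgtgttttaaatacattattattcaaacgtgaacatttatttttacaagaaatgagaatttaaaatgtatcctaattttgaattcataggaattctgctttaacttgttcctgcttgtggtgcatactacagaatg
Among all 35116 RefSeq windows, 1.77% held ATGCAAAT, 5.20% held AACAAAG and 0.151% held both. The second MIR302CHG window and the windows of LNCPRESS1 and LINC01356 held neither set of letters. A match describes the letters only and is no sign of binding, and 16.3% of distinct windows overlap a window on the other strand.

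FOXD3-AS1 and FOXD3 start 109 bases apart and run away from each other, so a part of their windows is the same DNA. This shared stretch (chr1:63322409-63322616, plus strand, the strand of FOXD3) holds 1 match to AACAAAG on the minus strand, shown in capitals as its complement.
FOXD3 and FOXD3-AS1: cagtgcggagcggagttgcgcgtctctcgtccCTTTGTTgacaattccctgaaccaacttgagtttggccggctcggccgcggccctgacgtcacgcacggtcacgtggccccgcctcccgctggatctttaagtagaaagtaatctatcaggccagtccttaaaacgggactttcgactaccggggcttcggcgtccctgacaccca
The match lies 126 bases before the start of FOXD3 and, read from the other side, inside FOXD3-AS1.

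Copies of a sequence elsewhere in the genome bear on how reads are assigned. The longest GENCODE transcript of each of the 8 RNAs was therefore compared, on the same strand only, with the transcripts of all other genes. It was searched over its whole length and at its 3′ end, which this assay reads. Other transcripts of these RNAs, and copies on the opposite strand, were not searched. Over whole transcripts, 3 other genes matched LINC00678, 20 matched ESRG and 1 matched LINC01356 over at least 100 bases at 95% identity. In the last 500 bases, 0 other genes did so for any of the 8 RNAs. At 85% identity, the last 500 bases of LINC00678 matched 34 other genes, those of LINC01356 28 and those of PCAT14 2, so values of these 3 RNAs are less certain.

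Of the 8 RNAs, 6 were lower in blastoids than in stem cells and 2, PCAT14 and LINC01356, were higher. Among all 16332 genes tested between the groups, edgeR called 49.9% different (27.1% higher and 22.8% lower in blastoids), and nothing is read from the members' count because they were chosen on this contrast. Levels are given as CPM, the UMIs of a gene per 1000000 UMIs of the sample or cell group. Such 3′ counts compare a gene with itself across samples and are not used to rank one gene against another.

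FOXD3-AS1 was the furthest below its stem cell level. Its level was 198 and 193 CPM in hESC 1 and hESC 2 and 1.65 and 2.55 in blastoid 3 and blastoid 4, a log2 fold change of -6.64 ± 0.23 (SE). Both stem cell samples lay far above both blastoid samples. FOXD3, its head-to-head partner, was at 16.4 ± 0.948 CPM (SD, n = 2) in stem cells and was nearly gone from blastoids, with 5 UMIs in blastoid 4 (0.283 CPM) and no row in the table of blastoid 3, which was taken as 0.

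LINC00678 was at 242 and 222 CPM in the stem cells and at 7.61 and 7.52 in the blastoids (log2 fold change -5.06 ± 0.16). LNCPRESS1 was at 190 and 144 in the stem cells and at 4.04 and 6.84 in the blastoids (-5.05 ± 0.30). The groups did not overlap for either RNA, and the spread within a group was wider for LNCPRESS1. MIR302CHG, the microRNA host, was at 687 and 706 in the stem cells and at 35.0 and 28.8 in the blastoids (-4.58 ± 0.15).

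ESRG was at 362 and 342 CPM in the stem cells and at 29.7 and 43.4 in the blastoids (log2 fold change -3.38 ± 0.23). LINC01405 differed least of the 6 lower RNAs, at 108 and 89.5 against 15.9 and 26.1 (-2.35 ± 0.26). The groups did not overlap for these RNAs, but relative to their mean the 2 blastoid samples differed more from each other than the 2 stem cell samples did.

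PCAT14 went the other way and was almost absent from stem cells. hESC 1 had 9 UMIs of it (0.679 CPM, exact 95% Poisson interval 0.310 to 1.29) and hESC 2 had 3 (0.189, interval 0.0389 to 0.551), while blastoid 3 had 994 (65.8) and blastoid 4 had 859 (48.6). These intervals cover counting error only. The fitted log2 fold change was 6.95 ± 0.35 and rested on the few hESC UMIs: it was 8.07 without hESC 1 and 6.22 without hESC 2. LINC01356 was at 17.5 and 15.5 in the stem cells and at 46.9 and 56.8 in the blastoids (1.53 ± 0.18).

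Without the barcodes that samples share, the 6 lower RNAs were lower still: -7.27 for FOXD3-AS1, -5.67 for LINC00678, -5.94 for LNCPRESS1, -5.31 for MIR302CHG, -4.19 for ESRG and -2.76 for LINC01405. The other 2 differed less, 6.16 for PCAT14 and 1.16 for LINC01356. No direction changed. With these barcodes left out, hESC 2 had 1864 cells and blastoid 4 had 901, and levels in all blastoid 4 cells fell, for example from 43.4 to 12.6 CPM for ESRG and from 48.6 to 22.8 for PCAT14.

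**Figure D1:**
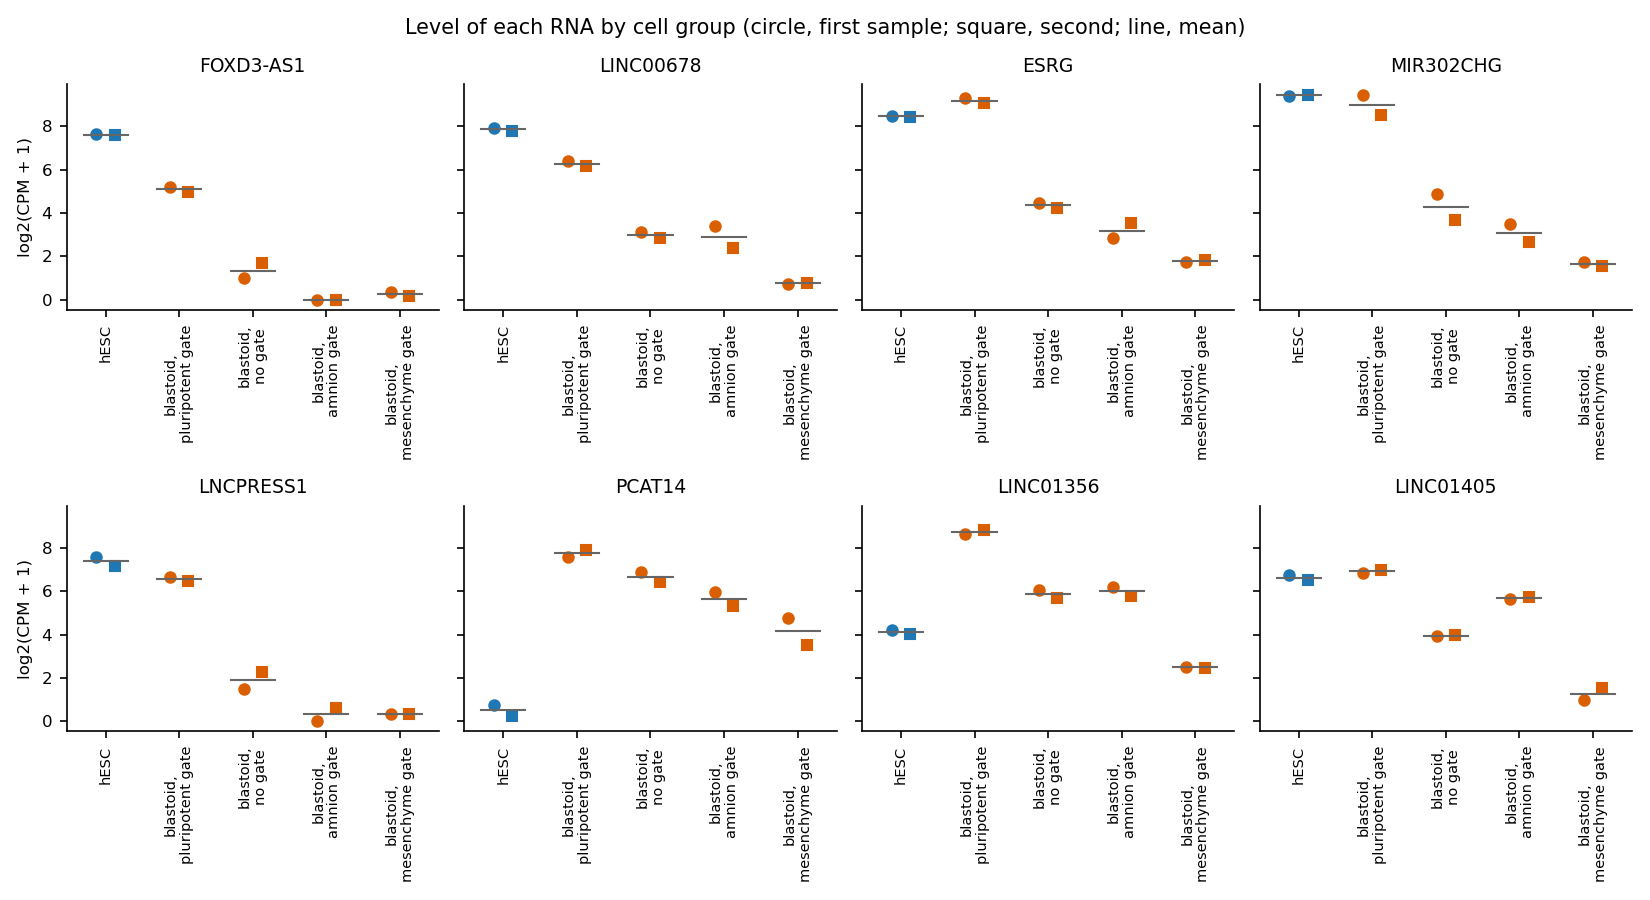
Level of each of the 8 RNAs as log2(CPM + 1) in hESC cells (blue) and in blastoid cells that pass the pluripotent gate, no gate, the amnion gate or the mesenchyme gate (orange); circles are hESC 1 or blastoid 3, squares hESC 2 or blastoid 4, and lines the means on the plotted scale. FOXD3-AS1, LINC00678 and LNCPRESS1 are highest in hESC, while PCAT14 and LINC01356 are lowest or nearly lowest there and highest in the pluripotent gate.

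The sum over all blastoid cells mixes cells of several kinds, so blastoid cells with 3 or more detected of POU5F1, SOX2, NANOG, TDGF1 and PRDM14 were set apart as the pluripotent gate. They numbered 45 of 2278 cells in blastoid 3 (1.98%) and 87 of 1916 in blastoid 4 (4.54%), and their median depths of 11000 and 13449 UMIs were above those of the other blastoid cells (6156 and 8608). The 5 gate genes summed to 1820 and 1720 CPM in these cells, which were chosen on them. They summed to 1870 in each stem cell sample, where no gate was used. Markers of amnion were low in the gated cells (48.2 and 69.2 summed, against 1330 and 1150 in amnion-gate cells), as were collagens and other markers of mesenchyme (177 and 119, against 5140 and 3480 in mesenchyme-gate cells). Of other cell types, endothelial markers summed to 113 and 80.3 CPM, above the 53.6 and 50.1 of stem cells, and came from 1 of 4 genes, KDR, with PECAM1, CDH5 and TEK at 0. Neuroectoderm markers summed to 165 and 207 against 84.9 and 96.0 and came from 1 of 3, NES, with PAX6 and OTX2 at 0. Endoderm markers summed to 6.03 and 2.56 against 2.79 and 3.71, with SOX17 detected in the gated cells of both samples and at 0 in stem cells. The part of these markers in the results was not tested.

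The gated cells of blastoid 4 rest on shared barcodes: 80 of the 87 carried one, against 0 of the 45 in blastoid 3. Of blastoid 4 cells with a shared barcode 7.88% passed the gate, and of those without one 0.777%, or 7 cells. Depth differed too: cells without a shared barcode were 901 of 1916 but held 5620404 of 17679447 UMIs. The part of depth in this difference was not tested.

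Most of what remained of 4 of the 8 RNAs in the blastoids was in these few cells, which held 3.30% and 6.62% of all UMIs. The share of UMIs in gated cells was 72.0% and 80.0% for FOXD3-AS1, 82.0% and 85.1% for LNCPRESS1, 69.9% and 82.8% for ESRG and 66.1% and 84.5% for MIR302CHG in blastoid 3 and blastoid 4. It was lower for LINC00678 (35.7% and 61.7%), LINC01356 (28.3% and 52.1%) and LINC01405 (23.8% and 31.6%), and lowest for PCAT14 (9.56% and 32.6%). In every case it was above the share of all UMIs, and it was higher in blastoid 4. That order of the samples rested on the shared barcodes. Without them the 7 gated cells of blastoid 4 held 0.823% of its UMIs, and the shares there were lower than in blastoid 3, with 1 of 6 UMIs of FOXD3-AS1 (16.7%), 3 of 6 of LNCPRESS1, 31 of 71 of ESRG (43.7%), 13 of 33 of MIR302CHG (39.4%) and 9 of 128 of PCAT14 (7.03%).

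**Figure D2:**
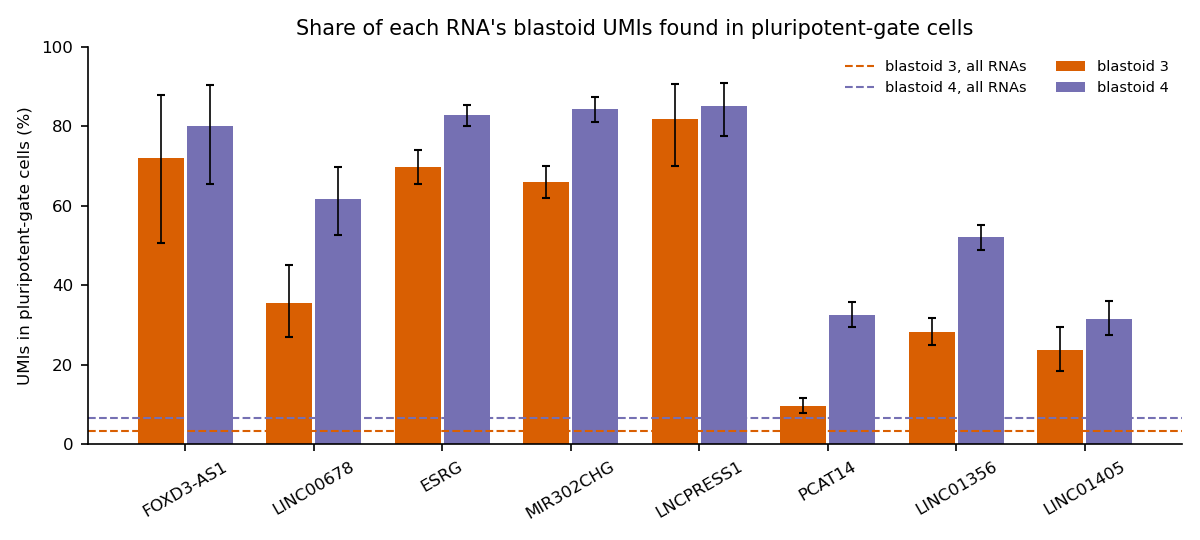
Percent of each RNA's blastoid UMIs that came from pluripotent-gate cells, by sample, with exact 95% binomial intervals (counting error only); dashed lines are the share of all UMIs in those cells, 3.30% and 6.62%. LNCPRESS1 reaches 82.0% and 85.1%, and PCAT14 9.56% and 32.6%; 80 of the 87 gated cells of blastoid 4 had a shared barcode, and without those its shares lie below those of blastoid 3.

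Within the gated cells, the 8 RNAs did not return to stem cell levels together. Among all 13981 genes tested between gated blastoid cells and stem cells, edgeR called 19.8% (10.5% higher and 9.30% lower). The members' values in this contrast are again a description, and the stem cell samples are the same as in the comparison of whole groups. They are described in 3 sets: below both stem cell samples in each gated sum, with no direction in common, and far above.

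FOXD3-AS1 was lowest against the stem cells, at 36.2 and 30.7 CPM in the gated cells of blastoid 3 and blastoid 4 against 198 and 193 (log2 fold change -2.67 ± 0.19). LINC00678 was at 82.4 and 70.0 against 242 and 222 (-1.72 ± 0.17), and LNCPRESS1 at 100 and 87.9 against 190 and 144 (-0.94 ± 0.19). Every gated sum of these 3 RNAs lay below both stem cell samples. The gated cells held 18 and 36 UMIs of FOXD3-AS1. They held 0 and 4 UMIs of FOXD3, which was lower in them than in stem cells (-2.84 ± 0.55). With 0 UMIs in the gated cells of blastoid 3, FOXD3 could pass the filter on low counts only through its stem cell level. With no filter it was still called lower. That log2 fold change hangs on the 4 UMIs of blastoid 4: it was -2.31 without blastoid 3 and -10.34 without blastoid 4, which leaves 0 UMIs and a value that is no bound.

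MIR302CHG, ESRG and LINC01405 had no direction in common. MIR302CHG was at 701 in gated cells of blastoid 3, between the stem cell values of 687 and 706, but lower in blastoid 4, where its 430 UMIs gave a level with an exact 95% Poisson interval of 333 to 404 CPM. The log2 fold change was -0.53 ± 0.20, and the 2 blastoid samples differed by more than the group means. ESRG was at 629 and 543, above both stem cell samples (0.63 ± 0.14). LINC01405 was at 115 and 125 against 108 and 89.5 (0.21 ± 0.17), and its direction was not stable: the log2 fold change was -0.01 without shared barcodes.

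PCAT14 and LINC01356 were far above their stem cell levels in gated cells. LINC01356 was at 404 and 447 CPM against 17.5 and 15.5 (4.61 ± 0.16), and PCAT14 at 191 and 239 against 0.679 and 0.189 (8.92 ± 0.28, or 9.95 without hESC 1 and 8.16 without hESC 2). No gated sum came near a stem cell sample. Without shared barcodes the log2 fold changes were 4.45 and 8.19, and for the other RNAs except LINC01405 the values were -2.72 (FOXD3-AS1), -1.80 (LINC00678), -0.96 (LNCPRESS1), -0.52 (MIR302CHG) and 0.63 (ESRG), with 7 gated cells left in blastoid 4.

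Against the other cells of the same blastoids, all 8 RNAs were higher in the gated cells, and 29.7% of the 14604 genes tested were called there (13.6% higher and 16.1% lower). For these sums the log2 fold change was 6.64 ± 0.32 for LNCPRESS1, 6.11 ± 0.12 for ESRG, 6.04 ± 0.13 for MIR302CHG, 5.99 ± 0.51 for FOXD3-AS1 and 4.29 ± 0.28 for LINC00678. It was 3.78 ± 0.11 for LINC01356, 2.91 ± 0.18 for LINC01405 and 2.32 ± 0.13 for PCAT14. PCAT14, the RNA with the smallest difference, was still at 61.5 and 35.1 CPM outside the gate, far above its stem cell level, whereas FOXD3-AS1 was at 0.479 and 0.545. Without shared barcodes all 8 were still higher in the gated cells, with log2 fold changes of 6.15 for ESRG, 5.87 for FOXD3-AS1 and 1.96 for PCAT14, which was then at 60.8 and 21.3 CPM outside the gate.

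Grouping the blastoid cells by how many of the 5 gate genes they had a UMI of showed steps between these extremes. With 0 gate genes, the level of ESRG was 3.24 CPM in blastoid 3 and 2.80 in blastoid 4. It was at 19.4 and 19.9 with 1, at 114 and 84.1 with 2, at 395 and 404 with 3, at 749 and 573 with 4 and at 590 and 733 with 5, so that it passed the stem cell levels. MIR302CHG went from 2.65 and 1.66 with 0 gate genes to 157 and 43.1 with 2, 452 and 313 with 3 and 880 and 327 with 5. Both RNAs were thus already raised in cells below the gate, in each blastoid sample. LNCPRESS1 was at 0.415 and 0.529 with 0 gate genes, at 6.12 and 12.9 with 2 and at 64.5 and 63.6 with 3.

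PCAT14 did not follow the same steps. It was at 41.6 and 21.0 with 0 gate genes, at 286 and 214 with 2, and at 218 and 307 with 3. LINC01356 was at 19.5 and 17.1 with 0, at 271 and 164 with 2 and at 629 and 445 with 3. These RNAs were thus high in cells with 2 gate genes, where FOXD3-AS1 was at 2.04 and 6.47. Just below and just above the gate stood 56 and 37 cells with 2 gate genes and 13 and 28 with 3, and the groups of 13, 8 and 12 cells are thin. The median depth rose too, from 6042 UMIs with 0 gate genes to 8794 with 2 in blastoid 3 and from 8385 to 12988 in blastoid 4, and its part in the steps was not tested. Without shared barcodes the blastoid 3 levels with 2 or more gate genes were the same, and blastoid 4 kept 5, 2, 5 and 0 cells with 2, 3, 4 and 5 gate genes, too few for steps of its own.

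The range over the same groups was narrower in the stem cells, 233 to 379 CPM for ESRG and 535 to 860 for MIR302CHG. In hESC 1, ESRG was at 233 with 0 gate genes and 379 with 5, while MIR302CHG was at 859 with 0 and 535 with 5. Detection there depends on depth, since hESC 1 cells with 0 gate genes had a median of 951.5 UMIs.

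**Figure D3:**
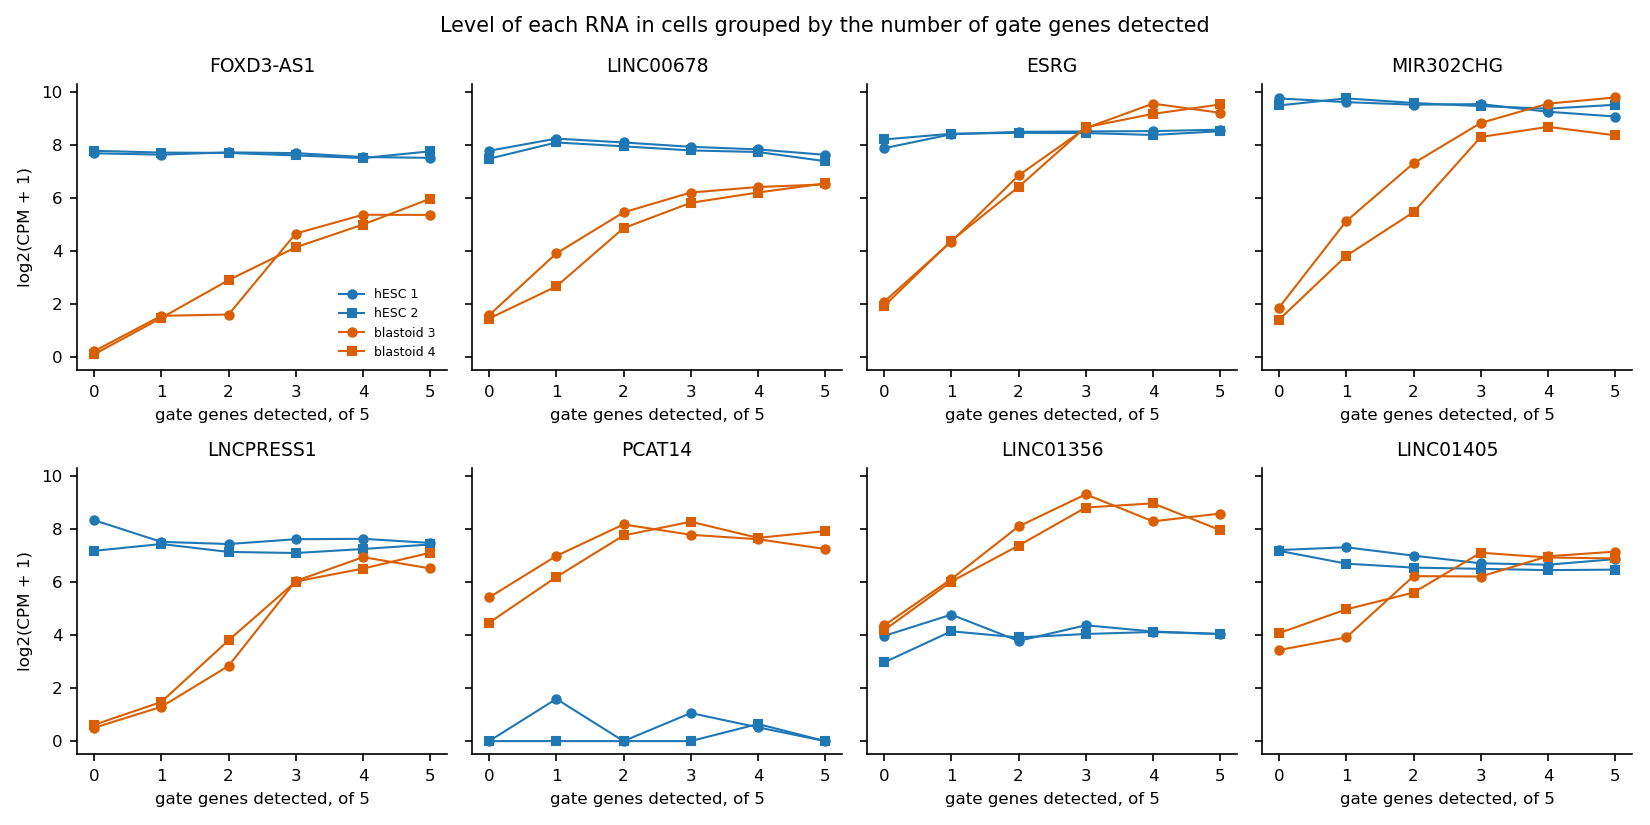
Level of each RNA as log2(CPM + 1) against the number of gate genes detected, from 0 to 5, in the 2 hESC samples (blue) and the 2 blastoid samples (orange). The blastoid curves of ESRG and MIR302CHG climb from under 4 CPM, ESRG past the hESC curves in both samples and MIR302CHG past them in blastoid 3, those of FOXD3-AS1, LINC00678 and LNCPRESS1 stay below them, and those of PCAT14 and LINC01356 end far above.

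Shares of cells were compared at equal depth, with each cell reduced to 2000 UMIs drawn at random. Cells with fewer were dropped, which left 1803 and 2202 hESC cells and 2171 and 1874 blastoid cells. FOXD3-AS1 then had a UMI in 32.3% and 31.4% of stem cells but in 2 of 45 (4.44%) and 7 of 86 (8.14%) gated cells. MIR302CHG had a UMI in 68.9% and 71.3% of stem cells and in 71.1% and 52.3% of gated cells, and ESRG in 47.3% and 47.4% against 68.9% and 58.1%. LINC01356 had a UMI in 2.94% and 2.77% of stem cells and in 51.1% and 41.9% of gated cells.

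Mesenchyme-gate cells, of median depth 6123 and 8233 before thinning, were used as a reference, since free RNA from other cells can be counted in any cell. Whether mesenchyme-gate cells make these RNAs themselves was not tested, so their UMIs need not be free RNA. At 2000 UMIs, 0.178% and 0% of them had a UMI of FOXD3-AS1, 0.178% and 0.356% of MIR302CHG, 0.444% and 1.19% of ESRG and 0.266% and 0.950% of LINC01356. PCAT14 stood higher, at 3.29% and 1.43%, and it was found in 22.2% and 34.9% of gated cells, and in 0.166% and 0% of stem cells (0 of 2202, which by 3 counts of the total allows up to 0.136%). All shares in gated cells named here were above those of mesenchyme-gate cells. Before thinning, ESRG had a UMI in 72.3% and 65.2% of stem cells and in 97.8% and 95.4% of gated cells, whose median depths were 11000 and 13449 UMIs against 5769 and 4996. Without shared barcodes, 6 gated cells of blastoid 4 reached 2000 UMIs, of which 4 had a UMI of ESRG and 0 of FOXD3-AS1, and the 8 RNAs kept the direction of their shares between all blastoid cells and stem cells.

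Cells often held several of the RNAs. Of the 6 that were lower in blastoids, 3 or more were found in 44.2% and 39.3% of stem cells, in 33.3% and 16.3% of gated cells and in 0.188% and 0.280% of the other blastoid cells, all at 2000 UMIs. PCAT14 and LINC01356 were found together in 0 stem cells and in 4 of 45 and 13 of 86 gated cells (8.89% and 15.1%). At least 1 of this pair and at least 1 of the 6 were found in the same cell in 27 of 45 and 49 of 86 gated cells. The 6 are those lower in whole blastoids. In gated cells ESRG, which is among them, was above both stem cell samples (629 and 543 CPM against 362 and 342). The count therefore does not show opposite changes inside 1 gated cell. Without shared barcodes, at least 1 of the pair and at least 1 of the 6 were found together in 25 of 45 and 3 of 6 gated cells.

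Outside the pluripotent gate, the RNAs that could be tested were higher in amnion-gate than in mesenchyme-gate blastoid cells. The members were not chosen on this contrast, so it was tested. Members and gates were still chosen with earlier results of these data known. Cells in no gate outnumbered amnion-gate cells and are described further below. Amnion-gate cells (214 and 389) had 3 or more of GATA3, TFAP2A, ISL1, GABRP, VTCN1 and WNT6, and mesenchyme-gate cells (1133 and 846) had 3 or more of COL1A1, COL1A2, COL3A1, LUM, DCN and POSTN, with neither group in another gate. Amnion is the thin epithelium that encloses the embryo. Of all 13815 genes tested, 47.4% were called between these cells (24.6% higher in amnion-gate cells and 22.8% lower), so a call alone says little.

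The filter kept 6 of the 8 RNAs. LINC01405 and LINC00678 reached its minimum of 1.80 CPM in both amnion-gate sums but not in both mesenchyme-gate sums, so they could enter only by being higher in amnion-gate cells, and their test is given from the fit with no filter.

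LINC01405 was at 48.2 and 52.8 CPM in amnion-gate cells of blastoid 3 and blastoid 4 and at 0.937 and 1.91 in mesenchyme-gate cells, a log2 fold change of 5.25 ± 0.23, or 5.20 with no filter (edgeR adjusted p 1.01e-105). Within each sample the log2 ratio of these CPM was 5.69 and 4.79. A UMI of it was found in 9.13% and 7.22% of amnion-gate cells and in 0% and 0.594% of mesenchyme-gate cells at 2000 UMIs. The amnion-gate level was below that of stem cells, 108 and 89.5. LINC01356 was at 73.4 and 54.6 against 4.68 and 4.50 (3.91 ± 0.18, edgeR adjusted p 1.96e-20), which is above its stem cell level of 17.5 and 15.5 in amnion-gate cells and below it in mesenchyme-gate cells. Over the alternative fits with edgeR or DESeq2, adjusted p for LINC01405 ran from 6.23e-109 to 5.87e-06. For LINC01356 it ran from 1.44e-101 to 5.62e-06, so the size of these p-values depends on the fit.

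PCAT14 differed less, with 60.5 and 38.4 CPM in amnion-gate cells and 25.8 and 10.6 in mesenchyme-gate cells (1.65 ± 0.16, edgeR adjusted p 4.20e-11). LINC00678 was at 9.51 and 4.27 against 0.669 and 0.682 (3.36 ± 0.56, or 3.31 with no filter, edgeR adjusted p 1.99e-07). For both RNAs, each amnion-gate sum was above both mesenchyme-gate sums.

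ESRG and MIR302CHG were low in both kinds of cell. ESRG was at 6.11 and 10.7 against 2.28 and 2.59 (1.96 ± 0.37, edgeR adjusted p 2.76e-05), and MIR302CHG at 10.2 and 5.33 against 2.28 and 1.91 (1.94 ± 0.42, edgeR adjusted p 2.06e-04). With DESeq2 these calls were lost, at adjusted p 0.0608 and 0.0670. Without shared barcodes the amnion-gate cells of blastoid 4 went from 389 to 177, and LINC00678 and MIR302CHG, with 2 and 3 UMIs left in them, did not pass the filter. The log2 fold change was then 5.25 for LINC01405, 4.21 for LINC01356, 1.86 for ESRG and 1.10 for PCAT14. Smaller sums raise the minimum of the filter. In blastoid 3 and blastoid 4, the mesenchyme-gate sums were at 0.939 and 2.47 CPM for LINC01405 and 2.15 and 2.47 for ESRG. Those of LINC01356 were at 4.69 and 3.17. These RNAs did not reach the minimum in both sums and could enter only by being higher in amnion-gate cells. Their calls are therefore not used, and that of PCAT14 held. FOXD3-AS1 and LNCPRESS1 had too few UMIs to be tested: FOXD3-AS1 had 0 UMIs in either amnion-gate sum and 2 and 1 in the mesenchyme-gate sums, and LNCPRESS1 had 0 and 2 against 2 and 2. The gate genes of pluripotency also differed between these cells, at 36.7 and 39.5 CPM summed in amnion-gate cells and at most 19.9 in mesenchyme-gate cells, with PRDM14 at 0 in all but mesenchyme-gate cells of blastoid 4. Their part in the result was not tested.

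Blastoid cells in no gate (833 and 441) held PCAT14 at 118 and 86.3 CPM, more than either the amnion or the mesenchyme gate did, and 118 and 66.5 without shared barcodes. They held ESRG at 20.8 and 18.0 and MIR302CHG at 28.6 and 11.9, between the pluripotent gate and the rest. Sums of the 5 pluripotency genes were also higher there, 83.6 and 85.2. Of the UMIs outside the pluripotent gate, cells in no gate held 600 of 899 and 312 of 579 for PCAT14. They held 106 of 135 and 65 of 132 for ESRG, but 72 of 183 and 53 of 316 for LINC01405.

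The order of the cell groups can be given for each RNA from its means over 2 samples. FOXD3-AS1 ran from stem cells (195 ± 3.49 CPM, SD, n = 2) through gated cells (33.4 ± 3.84) to cells in no gate (1.60 ± 0.872), and the amnion and mesenchyme gates at the bottom had 0 to 2 UMIs. ESRG ran from gated cells (586 ± 60.7) through stem cells (352 ± 14.1) and no gate (19.4 ± 1.97) to the amnion gate (8.39 ± 3.22) and the mesenchyme gate (2.43 ± 0.224). MIR302CHG in stem cells (696 ± 13.4) and in gated cells (534 ± 236) did not differ beyond the spread of the latter. LINC01405 in gated cells (120 ± 7.17) and stem cells (98.7 ± 12.9) was followed by the amnion gate (50.5 ± 3.21), no gate (14.4 ± 0.393) and the mesenchyme gate (1.42 ± 0.688). LINC01356 in the amnion gate (64.0 ± 13.2) and in no gate (58.6 ± 10.8) did not differ beyond their spread, and both stood below gated cells (425 ± 30.2) and above stem cells (16.5 ± 1.45).

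Within the stem cells, the RNAs also varied with the cell cycle, which the choice of members did not use either. Cells were given a phase from lists of S and G2/M genes, and the 212 and 189 cells called G1 were compared with the 1368 and 1981 called G2/M. Only 6.40% of the 12823 genes tested were called (2.53% higher and 3.87% lower in G2/M). G1 cells were shallower (median 3764.5 and 2945 UMIs, against 6635 and 5575) and had less mitochondrial RNA (9.59% and 9.46%, against 11.2% in both), and the part of these in the result was not tested except by thinning.

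MIR302CHG had the clearest difference: it was at 986 and 1060 CPM in G1 cells of hESC 1 and hESC 2 and at 638 and 652 in G2/M cells (log2 fold change -0.77 ± 0.05, edgeR adjusted p 1.44e-42). ESRG was at 484 and 511 against 355 and 331 (-0.63 ± 0.07, edgeR adjusted p 3.04e-17), and LINC00678 at 337 and 330 against 231 and 216 (-0.68 ± 0.08, edgeR adjusted p 4.13e-14). Both G1 sums of these RNAs were above both G2/M sums. After every cell was thinned to 2000 UMIs, an alternative chosen after seeing the data, the log2 fold changes were -0.65, -0.72 and -0.53 and the calls held. They held too without shared barcodes, at -0.59, -0.60 and -0.62.

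The difference was smaller or less certain for the others. LINC01405 was at 159 and 100 against 99.8 and 88.7 (-0.60 ± 0.12, edgeR adjusted p 7.48e-05), and FOXD3-AS1 at 231 and 232 against 186 and 183 (-0.43 ± 0.10, edgeR adjusted p 2.29e-04). The log2 ratio of these CPM in hESC 1 and hESC 2 was -0.67 and -0.18 for LINC01405 and -0.31 and -0.34 for FOXD3-AS1. DESeq2 called neither (adjusted p 0.270 and 0.151), and in the thinned cells FOXD3-AS1 was at -0.46 without the call (edgeR adjusted p 0.0680). Without shared barcodes both were called, at -0.47 for LINC01405 (edgeR adjusted p 0.0373) and -0.39 for FOXD3-AS1 (edgeR adjusted p 0.0379). LNCPRESS1 alone was higher in G2/M, at 144 and 108 in G1 and 196 and 152 in G2/M (0.35 ± 0.11, edgeR adjusted p 0.0369), with both G2/M sums above both G1 sums, but the call was lost in 5 of 9 alternatives, among them the one without shared barcodes (edgeR adjusted p 0.168). LINC01356 did not pass (-0.12 ± 0.33, edgeR adjusted p 0.925) and had no stable direction, and PCAT14 was not tested, with 0 UMIs in G1 cells of both samples.

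Against S-phase cells, the G2/M level of MIR302CHG was still lower, from 750 and 788 to 638 and 652, and that call held. ESRG, at 353 and 347 in S and 355 and 331 in G2/M, did not pass there (-0.09, edgeR adjusted p 0.249), nor did LINC00678 (-0.14, edgeR adjusted p 0.0894). Of 380 rows with a noncoding-RNA symbol, 18 were called lower in G2/M than in G1 and 0 higher. The share called lower, 4.74%, was near the 3.87% of all genes tested. The median log2 fold change of the 380 rows was -0.32, against 0.00 over all genes tested. Lower levels in G2/M were thus not limited to the RNAs followed here. Of 13 widely expressed or imprinted noncoding RNAs, 7 were called lower by edgeR and 4 were called by DESeq2. Among the 7 were NEAT1, GAS5 and ZFAS1, and over the list the median log2 fold change was -0.31 against 0.00 over all genes tested.

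**Figure D4:**
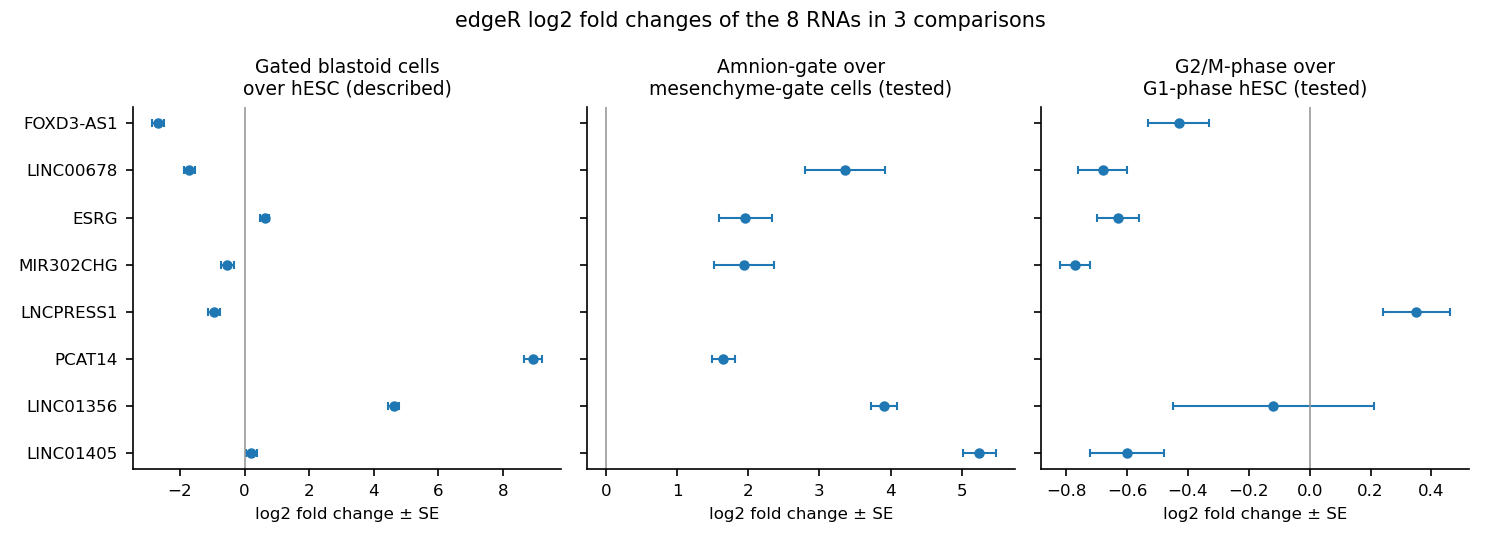
edgeR log2 fold changes ± SE of the 8 RNAs between gated blastoid cells and hESC (left, a description), amnion-gate and mesenchyme-gate blastoid cells (middle, tested) and G2/M-phase and G1-phase hESC cells (right, tested); each panel has its own scale, and RNAs with no point were not tested. The middle panel runs from 1.65 for PCAT14 to 5.25 for LINC01405, and on the right only LNCPRESS1 lies above 0.

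Of the coding genes nearest to or overlapping the 8 RNAs, 15 could be tested between blastoids and stem cells. Of these, 2 were called higher and 5 lower (13.3% and 33.3%, against 27.1% and 22.8% of all genes), and their median log2 fold change was -0.27 against 0.05 over all genes. The share called in either direction was close to the 49.9% of all genes. LARP7, which contains MIR302CHG and regulates 7SK RNA, stayed at 116 ± 5.76 CPM (SD, n = 2) in stem cells and 106 ± 25.3 in blastoids (-0.27 ± 0.16, edgeR adjusted p 0.192). It was not called in any of the 5 comparisons, but without blastoid 3 it was called lower in blastoids (-0.46, edgeR adjusted p 0.00286). CACNA2D3, a calcium channel subunit gene that contains ESRG, was low everywhere (2.82 ± 0.605 in stem cells and 0.463 ± 0.0945 in blastoids). Its log2 fold change was -2.72 ± 0.40. It was below the minimum of the filter in the blastoids, so it could enter only by being higher in stem cells. With no filter on low counts it was still called lower in blastoids. BDNF, 20.3 kb from LINC00678, was not called (-0.06 ± 0.19, edgeR adjusted p 0.808).

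Over 8 sums (2 hESC and, of each blastoid sample, the pluripotent, amnion and mesenchyme gates), the genes most like each RNA were found among 9148 by Pearson r of log2(CPM + 1). The profile of MIR302CHG was most like that of POU5F1 (r = 0.9941), that of LNCPRESS1 like SOX2 (0.9953), and that of ESRG like ENO2 (0.9954) and NANOG (0.9943). POU5F1, SOX2 and NANOG, the core pluripotency factors, were used to choose the gated cells, and the sums share libraries, so these values describe and test nothing. FOXD3-AS1 was most like BBS9 (0.9924) and LINC00678 like GGCT (0.9929). PCAT14 was most like SERPINB9 (0.9916), LINC01356 like SPP1 (0.9917) and LINC01405 like SCNN1A (0.9912).

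Among themselves, FOXD3-AS1, LINC00678, ESRG, MIR302CHG and LNCPRESS1 had pairwise r of 0.92 to 0.98 over the same sums. LINC01405 had r of 0.66 to 0.85 with these 5 and 0.74 with LINC01356. PCAT14 had r of -0.40 to 0.07 with the 6 lower RNAs and 0.71 with LINC01356.

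Other noncoding RNAs known from pluripotent cells mostly fell in blastoids: of 12, 1 was called higher and 8 lower (8.33% and 66.7%, against 27.1% and 22.8% of all genes), and their median log2 fold change was -2.22 against 0.05 over all genes tested. This list and those that follow were chosen with earlier results of these data known, so their counts are a description. Which side carried a list gene past the filter on low counts was not tested. LINC00458 fell by 5.15 on the log2 scale (SE 0.33, edgeR adjusted p 3.85e-05), LNCPRESS2 by 4.80 (SE 0.25, edgeR adjusted p 1.49e-05) and LINC00545 by 4.04 (SE 0.22, edgeR adjusted p 2.00e-05), and CRNDE rose (1.60 ± 0.22, edgeR adjusted p 9.48e-04). In gated cells against stem cells, edgeR called 1 of 10 higher and 4 lower (10.0% and 40.0%, against 10.5% and 9.30% of all genes). The median was -1.01 against -0.03, and DESeq2 called 3, not LINC00458 or LNCPRESS2. By edgeR LINC00458 was lower there too (-3.45 ± 0.43, edgeR adjusted p 3.73e-05), as was LNCPRESS2 (-0.93 ± 0.30, edgeR adjusted p 0.0385), while LINC01108 was higher (2.00 ± 0.56, edgeR adjusted p 0.0189). Of the other rows with a noncoding-RNA symbol, 19 of 483 were higher and 62 lower in gated cells (3.93% and 12.8%, against 10.5% and 9.30%).

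Pluripotency genes that were not used in the gate, a list chosen with the same knowledge, also fell in whole blastoids. There 10 of 12 were called lower (83.3%, against 22.8% of all genes), with a median log2 fold change of -2.26 against 0.05. In gated cells, 2 of 12 were called higher and 5 lower (16.7% and 41.7%, against 10.5% and 9.30% of all genes). The median there was -0.25 against -0.03 over all genes. UTF1, a chromatin factor of pluripotent cells, rose (1.76 ± 0.17, edgeR adjusted p 2.00e-06), as did DPPA2 (1.99 ± 0.35, edgeR adjusted p 9.02e-04). USP44, a deubiquitinase of histone H2B, fell (-1.66 ± 0.19, edgeR adjusted p 1.60e-05), as did the telomere protein gene TERF1 (-1.59 ± 0.17, edgeR adjusted p 7.73e-06) and the de novo DNA methyltransferase DNMT3B (-1.09 ± 0.18, edgeR adjusted p 6.12e-04).

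Genes reported as targets of miR-302 were followed beside its host. In whole blastoids, where MIR302CHG was lower, 2 of 10 were called higher and 3 lower (against 27.1% and 22.8% of all genes), and their median log2 fold change was -0.03 against 0.05 over all genes. The 5 calls of 10 are near the 49.9% over all genes. RHOC, a small GTPase, rose (0.87 ± 0.23, edgeR adjusted p 0.0162), and NR2F2, a nuclear receptor, was at 0 UMIs in both hESC samples and was detected in both blastoid samples. The NODAL antagonists LEFTY1 (-3.90 ± 0.28, edgeR adjusted p 5.72e-05) and LEFTY2 (-3.39 ± 0.30, edgeR adjusted p 1.42e-04) fell, as did CDKN1A (-0.51 ± 0.18, edgeR adjusted p 0.0477). In gated cells against stem cells, edgeR called 0 of 9, against 19.8% of all genes. At an unadjusted p under 0.05 edgeR gave 2, and DESeq2 called 0. A change of a reported target in RNA counts is no measure of the microRNA, which was not measured.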

How the data were processed

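For every sample the authors deposited a table of UMI counts, not normalized, made with Cell Ranger on GRCh38 per the submitters' processing notes. Versions, annotation, cell filters and strand use are not given in the sources used here. All values were whole numbers, and a gene missing from a table was taken as 0.

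Barcodes were kept as cells on 3 conditions: 500 or more genes, a mitochondrial share no higher than 20%, and no doublet call by Scrublet (scanpy 1.11.5, expected rate 0.06). Scrublet marked 27, 0, 11 and 35 cells, so doublets of similar cells, and those of hESC 2, remain. Counts were summed per sample and cell group, since cells are not replicates, and the sums went into edgeR 4.0.16 for its quasi-likelihood test (TMM, filterByExpr, Benjamini-Hochberg over all genes, adjusted p under 0.05). Comparisons within a group of samples had the sample as a covariate. The standard error is the log2 fold change over the square root of F. Alternatives were DESeq2 1.42.0, library-size scaling, other filters on cells and low counts, other gates, no sample covariate, and leaving out samples or shared barcodes. CPM were computed from the counts. Cell cycle phases used scanpy's scores from 42 S and 52 G2/M genes. Shares have exact Clopper-Pearson and levels exact Poisson intervals, for counting error only. Near copies were searched with BLAST 2.17.0 in GENCODE transcripts. Fits were also run on simulated counts with the same fixed dispersion for every gene, unlike real counts, and nothing here rests on that run.

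The members, gates and gene lists were chosen with earlier results of these data known. The genes named are the members, their nearest coding genes, up to 3 called genes with the largest change each way in each list and comparison, and, from the 3 genes most like each member, the closest.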

Additional observations from a re-analysis of the deposited data

How the results depend on the processing

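Of 373 values of the 8 RNAs under an alternative, 344 kept their call or, where no test was made, moved by less than the spread between samples. The direction changed for LINC01405 in gated cells against hESC, from 0.21 to -0.01 without shared barcodes, and for LINC01356 in G2/M against G1, called in no fit, from -0.12 to 0.13 with DESeq2 and 0.05 against S. The cause was not tested, nor was that of the other changes given here. Counts of genes called over the whole table moved more. Blastoid against hESC gave 8157 calls and 4896 to 10149 when each sample was left out, 4896 without hESC 1 and 5114 without hESC 2. Gated cells against hESC gave 2770, against 1689 with DESeq2, 1518 without shared barcodes and 1145 to 3173 with each sample left out (1145 without hESC 1, 1462 without hESC 2, 1742 without blastoid 4). Gated against other blastoid cells gave 4341, against 1570 with DESeq2, 2098 with no replicate block for the sample and 865 without shared barcodes. Amnion gate against mesenchyme gate gave 6542, against 2700 with DESeq2 and 3861 with no replicate block for the sample. G2/M against G1 gave 821, against 280 with DESeq2, 395 with cells thinned to equal depth (chosen after seeing the data), 408 with no replicate block for the sample, 356 without shared barcodes and 1436 for G2/M against S.

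With library size in place of TMM, the median gene shifted by 0.13 (blastoid against hESC), -0.14 (amnion against mesenchyme gate) and 0.11 (G2/M against G1) on the log2 scale, and calls that were higher went from 51.9% to 39.0% between the amnion and mesenchyme gates and from 39.6% to 64.5% between G2/M and G1. Every direction given for the 8 RNAs held under it. In comparisons within samples, leaving out a sample leaves no spread to test with, so those fits were not run. Without shared barcodes LINC00678 and MIR302CHG had no value between the amnion and mesenchyme gates. The shares of cells and of UMIs without these barcodes were chosen after seeing the data. Across groups, no paired analysis was possible because hESC and blastoid samples share no replicate number. Depth limits most what can be said of FOXD3-AS1 and LNCPRESS1 outside the pluripotent gate and of PCAT14 in hESC.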
